A study of Drosophila melanogaster with 8 samples.

Results

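Neuroblasts, the neural stem cells of the fly, divide asymmetrically: a protein complex gathers at the apical cortex, and fate determinants are held at the basal cortex and inherited by the smaller ganglion mother cell. At the apical side the Par complex (the scaffold Bazooka, the adaptor Par-6 and the kinase aPKC) is joined through Inscuteable to Pins and Mud, which orient the spindle. At the basal side Miranda and Partner of numb carry the determinants. The genes described are the 10 whose annotated symbol is aPKC, baz, par-6, insc, pins, mud, cno (the apical and cortical components), mira, pon or stau (the basal components). Each had 1 probe, so they make up 10 of 14569 probes, and 9 of them were among the 8306 features tested. Asense, whose gene is mutated here, is a proneural-type bHLH transcription factor made in neuroblasts.

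RNA came from Drosophila melanogaster embryos at stage 11 (25 °C), from 50 to 100 neuroblasts and ganglion mother cells taken from the ventral nerve cord, and the cDNA was amplified by PCR. Mutant embryos were ase1/ase1. The embryos labelled wild type were heterozygous, ase1/FM7-KrGFP, with FM7 a balancer of the X chromosome, so every sample held at least 1 mutant copy. Mutant and wild-type RNA were labelled with different dyes and set against each other on 8 arrays, which form 5 pairs with the numbers 1, 3, 4, 5 and 6. In pairs 1, 4 and 5 an array a and an array b share their source names, and their mean was used. The mutant was in Cy5 on 3 arrays and in Cy3 on 5.

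All values are log ratios of mutant over wild type, read as log2. The direction is likely, not stated: ase itself lay between -6.50 and -4.81 on the 8 arrays in both dye orientations, with a mean of -6.06 ± 0.47 (SD, n = 5 pairs). Features with values from 4 or 5 pairs were tested, and called at a limma adjusted p below 0.05 over all 8306 features. By that rule 18.4% of features were called, 6.97% higher and 11.4% lower in mutant cells. The labels do not say that pairs came from separate embryos, so the p-values reflect only how far these pairs spread, which may be technical.

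Of the 9 tested genes, aPKC rose and mira fell in ase mutant cells, and the other 7 did not pass the test. With 2 called among so few, the share lies near the background, and nothing about the genes as a set is read from it. The median log ratio was -0.21 over the 9 genes, against -0.07 over all features tested. Of the 9 means 8 lay below 0, as did 57.4% of those of all features tested. Par-6 (-0.59) and pon (-0.62) lay below 0 and just missed the threshold. Insc, mud and stau were within 0.04 of 0. In RNA from mixed cells, fewer cells of a type and less RNA per cell cannot be told apart.

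**Figure D1:**
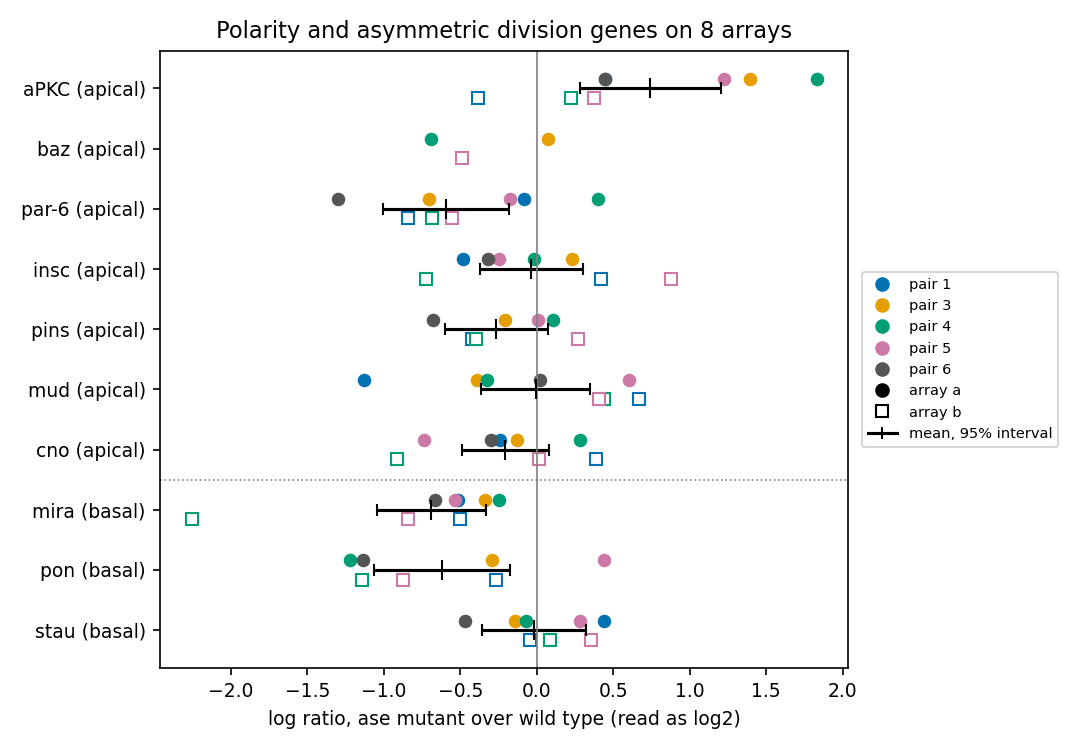
Log ratio of mutant over wild type (horizontal axis, log2) for the 10 genes, with 1 point per array coloured by pair (filled circles, array a; open squares, array b) and the mean with its 95% interval for the 9 tested genes. All 8 points of mira lie below 0, 7 of 8 points of aPKC lie above 0, and baz has only 3 points.

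The kinase aPKC, which phosphorylates basal proteins and so drives them off the apical cortex, had log ratios of 0.45 and -0.38 in pair 1, 1.40 in pair 3, 1.83 and 0.23 in pair 4, 1.23 and 0.37 in pair 5, and 0.45 in pair 6. It was above 0 in 5 of 5 pairs, though pair 1 averaged only 0.03. It was above 0 on 7 of 8 arrays, and 15.1% of features measured on 8 were above 0 on at least 7. The mean was 0.74 ± 0.53 (SD, n = 5; 95% interval 0.28 to 1.20; limma adjusted p = 0.0395), a 1.67-fold higher level in mutant cells on this reading. Of all features tested, 95.7% had a lower log ratio. The call was lost without pair 3 (adjusted p = 0.0892), pair 4 (0.113) or pair 5 (0.103). It was also lost with a dye term (0.0710), with exact zeros kept as values (0.0770), with trend and robust moderation (0.0502), and with array b in the pairs that have one (0.245, log ratio 0.41).

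Array a gave a higher aPKC value than array b in each of the 3 pairs with both, by 0.83, 1.60 and 0.85. The mean size of that gap, 1.09, was larger than for 90.7% of features measured on all of these arrays, whose median was 0.53. An array a above array b in all 3 pairs was found for 19.3% of them. Par-6 was among these, by 0.76, 1.09 and 0.38 in pairs 1, 4 and 5. The median of the measured values was also higher on array a than on array b in each of these pairs.

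A further probe, chosen after its values were seen, carries the annotation CG30475, a gene model since retired that the gene table lists as an older name of aPKC. Its log ratios were 0.61 in pair 1, -0.56 in pair 3, -0.03 and -0.39 in pair 4, -0.36 and -0.51 in pair 5, and -0.14 in pair 6, with array b of pair 1 not measured. It lay below 0 on 6 of 7 arrays, and its mean of -0.15 ± 0.45 (SD, n = 5) did not pass the test (limma adjusted p = 0.592; 95% interval -0.56 to 0.27). The aPKC probe was above it on 6 of 7 arrays, by up to 1.96. Averaging both probes gave 0.25 ± 0.16 for aPKC, above 0 in 5 of 5 pairs, though not on array b taken alone. On array b the aPKC probe was at -0.38 in pair 1, 0.23 in pair 4 and 0.37 in pair 5. The CG30475 probe was further from 0 on the other side there in pairs 4 and 5, at -0.39 and -0.51. Which transcripts each probe reads was not examined.

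Par-6, the adaptor that binds aPKC directly, had log ratios of -0.08 and -0.84 in pair 1, -0.70 in pair 3, 0.40 and -0.69 in pair 4, -0.18 and -0.55 in pair 5, and -1.30 in pair 6. It was below 0 in 5 of 5 pairs. It was below 0 on 7 of 8 arrays, and 19.6% of features measured on 8 were below 0 on at least 7. Its mean of -0.59 ± 0.44 (SD, n = 5; 95% interval -1.01 to -0.18) did not pass the test (limma adjusted p = 0.0538). It passed when each array entered alone with its pair as a random block (0.0458, a fit that called 27% of features, with 16.9% of all features lower in mutant cells). Par-6 also passed among features measured on all 8 arrays (0.0489) and with array b (0.0146). With array a only it did not (limma adjusted p = 0.389, log ratio -0.37). In all, 3 of 19 other settings called it. The log ratio of aPKC exceeded that of par-6 on 8 of 8 arrays, by 0.49, 2.10, 1.17, 1.17 and 1.75 in pairs 1, 3, 4, 5 and 6. That pairing was set out with the values known and was not tested. The CG30475 probe lay nearer to par-6 than to aPKC in pairs 3, 4 and 5, at -0.56, -0.21 and -0.43, next to -0.70, -0.14 and -0.37 for par-6. In pairs 1 and 6, at 0.61 and -0.14, it lay nearer to aPKC (0.03 and 0.45) than to par-6 (-0.46 and -1.30).

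Bazooka (baz), the Par-3 scaffold that recruits Inscuteable, was measured on 3 of 8 arrays only. The values were 0.08 in pair 3, -0.69 on array a of pair 4 and -0.49 on array b of pair 5. With 3 pairs it fell short of the minimum for the test.

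**Figure D2:**
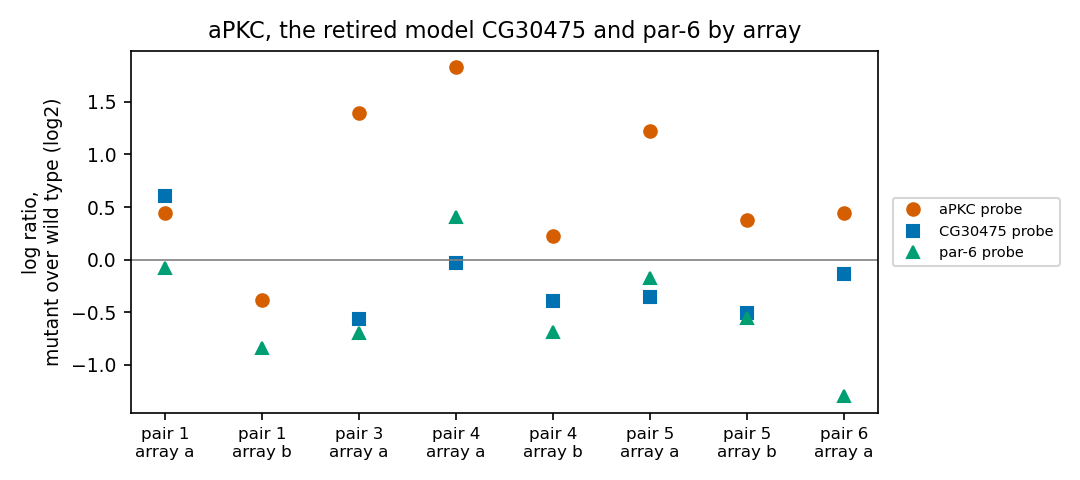
Log ratio (vertical axis, log2) on each of the 8 arrays (horizontal axis) for the aPKC probe, the probe of the retired model CG30475 and the par-6 probe. The aPKC points stand above the par-6 points on all 8 arrays and above the CG30475 points on 6 of 7, and on each pair with 2 arrays the aPKC point of array a is higher.

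The genes that link polarity to the spindle showed no call. Inscuteable (insc), the adaptor between Bazooka and Pins and itself a neuroblast marker, ranged from -0.72 to 0.88 over the 8 arrays, with 3 arrays above 0. Its mean was -0.03 ± 0.31 (SD, n = 5; limma adjusted p = 0.889). The interval of -0.37 to 0.30 leaves room for shifts in either direction. Pins, the GoLoco protein that binds the G protein alpha subunit, was measured on 7 arrays, between -0.68 in pair 6 and 0.27 on array b of pair 5. It averaged -0.26 ± 0.31 and lay below 0 in 4 of 5 pairs (adjusted p = 0.230; interval -0.60 to 0.07).

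Mud, the NuMA-type protein that anchors dynein below the cortex, spread most between repeat arrays in pair 1, where array a gave -1.13 and array b 0.67. Its mean was -0.01 ± 0.34 (limma adjusted p = 0.979), and the interval ran from -0.36 to 0.35. Canoe (cno), an actin-linked junction protein that also acts at the neuroblast's apical cortex, ranged from -0.91 to 0.39 over the arrays. Its mean was -0.21 ± 0.18 with 4 of 5 pairs below 0 (adjusted p = 0.262; interval -0.49 to 0.08). The probe of CG31537, a retired model now listed under cno, had a value on 1 array only, -0.40.

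Miranda (mira), the adaptor that holds Prospero, Brat and Staufen at the basal cortex, had log ratios of -0.52 and -0.50 in pair 1, -0.34 in pair 3, -0.25 and -2.26 in pair 4, -0.53 and -0.84 in pair 5, and -0.66 in pair 6. All 8 arrays were below 0, which held for 8.14% of the features measured on 8 arrays. The array b value of pair 4 stood far below the others. The mean was -0.69 ± 0.34 (SD, n = 5; 95% interval -1.05 to -0.33; limma adjusted p = 0.0217), 1.61-fold lower in mutant cells on this reading. The call was lost without pair 4 (adjusted p = 0.0561, log ratio -0.55), without pair 5 (0.0670) and with array a of each pair only (0.0929, log ratio -0.46).

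Partner of numb (pon), the adaptor that helps bring Numb to the basal crescent, was at -0.26 in pair 1, -0.30 in pair 3, -1.22 and -1.14 in pair 4, 0.44 and -0.87 in pair 5, and -1.14 in pair 6. Array a of pair 5 was the 1 of 7 measured arrays above 0. The mean of -0.62 ± 0.49 (SD, n = 5; interval -1.06 to -0.18) did not pass the test (limma adjusted p = 0.0591). It passed with single arrays and that random block (0.0333) and with array b (0.0330), 2 of 18 other settings. It did not pass with array a only (limma adjusted p = 0.314, log ratio -0.55). Nor did it pass with any 1 pair left out (up to 0.158, without pair 4). Staufen (stau), the double-stranded RNA-binding protein that carries prospero mRNA, lay between -0.47 and 0.44, with 4 arrays on each side of 0. Its mean was -0.02 ± 0.31 (adjusted p = 0.947; interval -0.36 to 0.32), and its repeat arrays lay closer together than for all but 9.12% of features.

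The determinants that these adaptors carry were set beside them. Prospero (pros), the homeodomain factor that Miranda brings to the ganglion mother cell, fell (-1.27 ± 0.39, SD, n = 5; limma adjusted p = 0.00397), and was below 0 on all 7 arrays that measured it. Brat (-0.36), a translational repressor and Miranda cargo, and the Notch inhibitor numb (-0.34) did not pass (adjusted p = 0.190 and 0.164). So 1 of 3 tested determinants fell and 0 rose, with a median of -0.36. The mira log ratio exceeded that of pros by 0.48, 0.55, 0.60, 0.46 and 0.80 in pairs 1, 3, 4, 5 and 6. The SD of this difference, 0.13, was undercut by 0.334% of 6583 named genes set against pros, and mira was among 10 such comparisons of partners made with the values known. By array the same difference ran from -0.30 to 1.21 (SD 0.49 over 7 arrays), so the steadiness over pairs was not kept array by array.

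**Figure D3:**
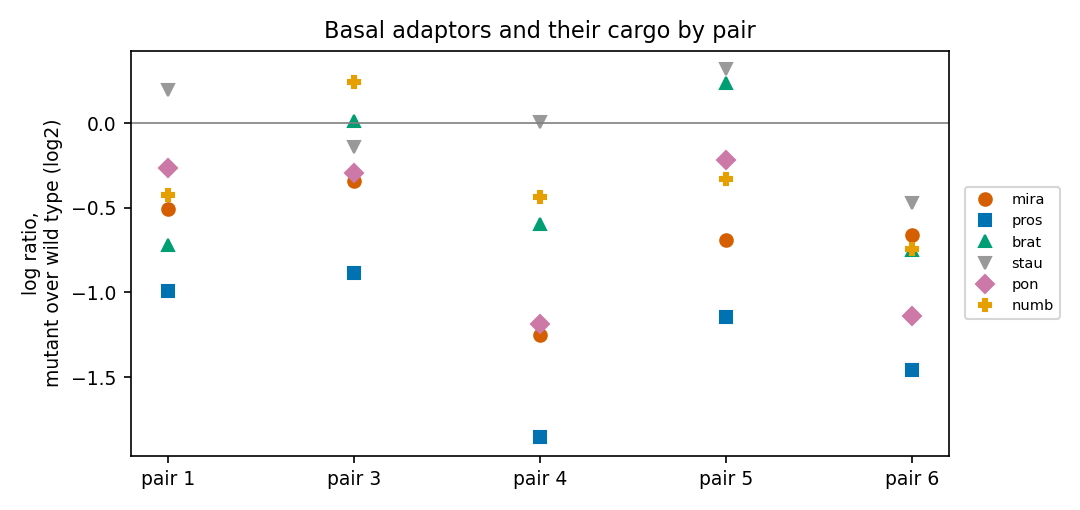
Pair log ratios (vertical axis, log2) of the basal adaptors mira and pon, the RNA-binding protein gene stau and the determinants pros, brat and numb in the 5 pairs (horizontal axis). Pros is lowest in every pair, mira lies 0.46 to 0.80 above it, and stau is above 0 in pairs 1, 4 and 5.

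Within each pair the mean log ratio of the 6 tested apical genes was set against that of the 3 basal genes. The apical mean was -0.17, 0.03, 0.02, 0.17 and -0.35 in pairs 1, 3, 4, 5 and 6, and the basal mean was -0.19, -0.26, -0.81, -0.19 and -0.76. The apical mean was the higher in 5 of 5 pairs, though by only 0.02 in pair 1, and by 0.38 ± 0.29 on average (SD, n = 5). Without aPKC the difference was 0.22 ± 0.26 and ranged from -0.02 to 0.63. The 3 basal genes did not move as 1 group, since stau lay above mira in 5 of 5 pairs, by 0.19 to 1.26. No test was made on these means, because the genes were chosen with earlier results of the same arrays known.

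**Figure D4:**
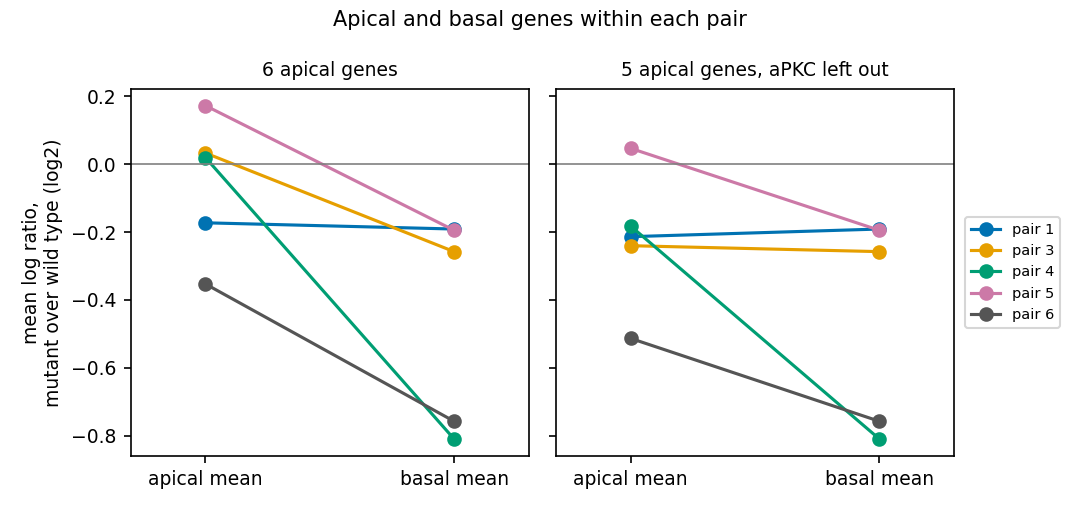
Mean log ratio (vertical axis, log2) of the tested apical genes and of the 3 basal genes, joined within each of the 5 pairs, with all 6 apical genes (left panel) and with aPKC left out (right panel). Every line falls in the left panel; in the right panel those of pairs 1 and 3 are close to level.

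The spread of the 9 genes over pairs (median SD 0.34) was like that of all features tested (0.35). In 4 of the 9 (aPKC, par-6, mira and pon) all 5 pairs lay on the same side of 0, against 34.4% of all features tested with all measured pairs on 1 side. Dye terms of the 9 genes were at most 0.28 in size, with unadjusted p from 0.105 to 0.960. Each term is the shift of an orientation from the mean of both, so the gap between orientations is larger. Pon, with the largest term, averaged -0.28 in pairs with the mutant in Cy5 and -0.85 in those with it in Cy3. The same means were -0.42 and -0.87 for mira, and 0.71 and 0.76 for aPKC. Limma called 0 of 8306 dye terms, with 336 at an unadjusted p below 0.05. With a dye term mira kept the call (adjusted p = 0.0355). Of the 10 genes, baz, par-6, mud and pon lie on the X chromosome, where ase and the balancer are. The median log ratio was -0.08 over 1108 tested genes of the X and -0.06 over 5884 of the other arms.

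Tested partners of the apical complex showed no call: limma called 0 of 5 tested, with 0 at an unadjusted p below 0.05. The list held 11 genes, of which 6 were named on the array, so most were not assessed. Discs large (dlg1, -0.29, adjusted p = 0.173), a cortical scaffold of the Pins pathway, and the RGS protein gene loco (-0.23, 0.276) had the smallest p. The G protein subunit gene Galphai (-0.13), scrib (0.16) and the aPKC antagonist l(2)gl (-0.21) completed the tested list, whose median was -0.21.

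Among 5 tested mitotic and phosphatase regulators, of 11 listed, 1 rose and 1 fell. The Aurora A activator bora rose (0.59 ± 0.10, SD, n = 5; limma adjusted p = 0.0134) and was above 0 on all 8 arrays. The Aurora B kinase gene aurB, needed for chromosome segregation and cytokinesis, fell (-1.14 ± 0.12; adjusted p = 0.00140) and was below 0 on all 8. Bora lost the call without pair 5 (0.0553) and with array a only (0.141). Of 14 listed spindle orientation and cortical motor genes 8 were tested. Among these the dynein light chain gene ctp fell (-0.66 ± 0.32; 0.0229) and the centrosome gene spd-2 rose (0.51 ± 0.14; 0.0242). Dhc64C (0.35), the dynein heavy chain, and DCTN1-p150 (0.20), the largest dynactin subunit, did not pass. Without pair 4 or 5 ctp lost the call (0.0702 and 0.0670), and spd-2 lost it without pair 1, 3, 4 or 5 (0.0553 to 0.0904). With array a only, both lost it (0.173 for ctp and 0.205 for spd-2).

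Of 3 tested epithelial polarity genes, from a list of 6, 2 rose. These were the apical determinant gene crb (0.52 ± 0.28, SD, n = 5; limma adjusted p = 0.0400) and the junction scaffold gene pyd (0.72 ± 0.23; 0.0121), both above 0 on all 8 arrays, while sdt (0.12) did not pass. Crb lost the call without pair 1, 4, 5 or 6 (0.0615 to 0.122), with a dye term (0.0665), with array a only (0.0785), with array b (0.108) and with trend and robust moderation (0.0504). Pyd kept it in each of these settings. These genes act in epithelia, and crb and pyd are also in the epidermal marker list.

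**Figure D5:**
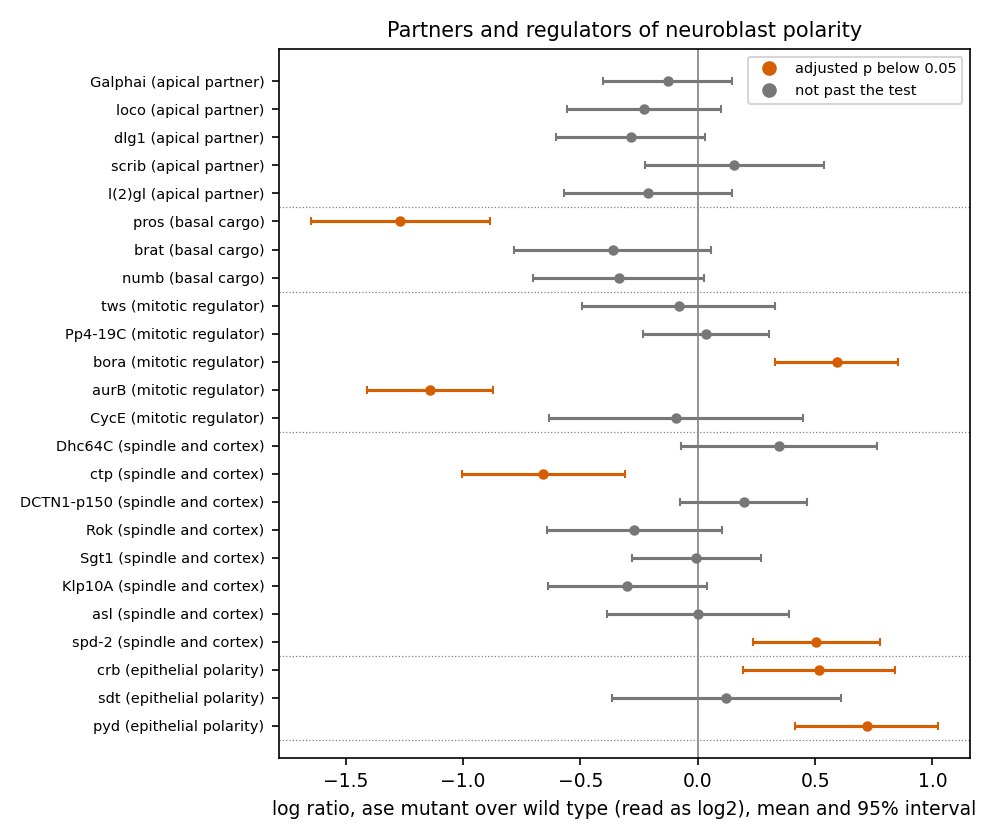
Mean log ratio (horizontal axis, log2) with its 95% interval for the 24 tested genes of the partner and regulator lists, grouped by list. Those past the test are pros, aurB and ctp below 0 and bora, spd-2, crb and pyd above 0.

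Neuroblast transcription factors, on 9 of which a test was made, went in both directions: klu (-1.21) and svp (-0.96) fell and D (1.31) rose. Klu lost the call without pair 1, 3 or 4 (adjusted p 0.0580 to 0.0815), with a dye term (0.0615), with array b (0.0651) and with zeros kept (0.0780). Svp lost it with array b (0.211) and with each probe on its own (0.0896, log ratio -0.55). In the list of 5 neuroblast markers ase and mira fell, while dpn (-0.44), insc (-0.03) and wor (-0.11) missed the threshold. Each of the 5 was measured on 8 of 8 arrays. Ase is the mutated gene and its fall set the direction of the ratios, so it says nothing about neuroblast content. Mira and insc are polarity genes already described. The other markers, dpn and wor, were not called (limma adjusted p = 0.0791 and 0.734). Of 5 ganglion mother cell markers pros and nerfin-1 (-1.31) fell and 0 rose. Hey, eve (-0.96) and ftz (-0.0012) did not pass (limma adjusted p = 0.151, 0.0511 and 0.997). The list median of -1.23 was the value of Hey, whose SD over pairs was 1.72.

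Markers of other cells moved in the same arrays. The glial genes gcm (-3.77 ± 2.22, SD), Gs2 (-1.61 ± 1.12) and repo (-1.20 ± 0.65, n = 4) fell, 3 of 3 tested, with list medians of -2.80 to -1.06 in the pairs. In pair 4 gcm was at -0.35 on array a and -7.43 on array b, and Gs2 averaged 0.05. Gcm2 and moody, with values on 1 and 2 arrays, were not tested. The neuronal genes elav (-0.67) and Appl (-0.43) fell, 2 of 2 tested, and brp had no value on any array. Of 4 tested mesoderm and muscle genes lmd (-2.08) and slou (-0.75) fell, with pair medians of -1.28 to 0.11. Of 5 epidermal and ectodermal genes crb and pyd rose and grh (-1.49) fell, and shg had no value on any array. Of 4 hemocyte genes crq (-1.05) and Hml (-0.39) fell, with pair medians of -0.53 to -0.34. Of 2 midline genes 0 were called by limma and 1, Tl (0.72), had an unadjusted p below 0.05. The germ line gene bam (-0.69) fell, and vas had no value on any array. Of the genes called in these other cell types, crq and pyd kept the call in every setting run at the 0.05 threshold other than the Cy5 over Cy3 reading. Each of the others lost it in at least 1: crb as already given, elav, Appl, Gs2, slou, grh, Hml and bam without 1 pair or another (adjusted p up to 0.154), gcm and lmd with array a only (0.117 and 0.104), and repo with zeros kept (0.161). Further losses, among them those of elav, Appl, Hml, slou and bam, came with other settings, the highest adjusted p being 0.370 for Hml with array a only. The part of these cells in the values of aPKC and mira was not tested.

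By the root mean square difference over the 5 pair values, the named genes most like aPKC among 6583 were msl-2 (0.24), grau (0.24) and atos (0.25). Those most like mira were ATPsynC (0.14), CG15534 (0.14) and Opa1 (0.15).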

How the data were processed

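The deposited values were log ratios of the 2 channels for 14569 probes, here read as log2. The log base and the authors' normalization, centring and scaling were not given in the sources used here. With exact zeros counted, the median of every array was 0, and the largest size was 7.43. Over the measured values alone the medians ran from -0.18 to -0.02. They were lower on array b than on array a in pair 1 (-0.10 and -0.02), pair 4 (-0.16 and -0.04) and pair 5 (-0.18 and -0.07). If the base was e, folds would be larger. Exact zeros made up 36.3% to 43.7% of each array (for 3490 probes, every array) and were taken as not measured, which left 8200 to 9276 values an array. Precision is limited by how many arrays there are. Scanner intensities were not analysed here.

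Probes were named through a platform annotation, in which 12657 had 1 symbol, 96 several and 1816 none. For 12011 probes the gene identifier matched a gene table of the Release 6 assembly, used only for names, older names and chromosome arms. Probes of a gene were averaged, then arrays of a pair. The mean over pairs was set against 0 in a two-sided moderated test (limma 3.58.1, lmFit then eBayes, under R 4.3.3) with Benjamini-Hochberg adjustment over 8306 features (7624 with 5 pairs, 682 with 4).

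The fit was tested on simulated data of the same 8306 features and 5 pairs, and recovered 80 of 100 shifts of 1 and 95 of 100 shifts of 2, with 16 unshifted features called. Each feature was drawn on its own, without effects shared by an array. Smaller shifts, such as the 0.74 of aPKC and the -0.69 of mira, were not simulated, so these rates do not apply to them. The members and lists were chosen with earlier results of these data known. Named were all members, ase, each list gene past the test, up to 2 of the smallest p where none passed, and the 3 nearest patterns to each called member. Other list genes, the retired gene models and the partner differences were named after their values were seen. Alternatives changed direction, dye, repeat arrays, centring, scaling, weights, zeros, features tested, probe averaging, moderation, threshold and pairs. No sequences are shown.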

Additional observations from a re-analysis of the deposited data

Results flagged for a closer look

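Of 37 groups of pair values examined, 1 had a pair far from the others: svp, a nuclear receptor gene of the neuroblast list, was at -1.49 in pair 6, and the nearest of the other pairs was at -0.93. Chance flags about 1 in 20 such groups, which is 1.85 of 37. None of the 9 tested polarity genes had such a pair.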

How the results depend on the processing

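Of 25 named genes past the test, 7 kept the call in every other setting run at the 0.05 threshold, 18 lost it in at least 1 and 0 changed sign, leaving out the Cy5 over Cy3 reading. Among members, mira was called in 16 of 19 such settings and aPKC in 12 of 19. Leaving out 1 pair in turn gave 662 to 1306 features called, 269 to 476 higher and 393 to 830 lower, with 0 or 1 members higher and 0 or 1 lower. These fits had fewer pairs. With array a only, 478 features were called, 190 higher and 288 lower, and 0 members lower. At an adjusted p below 0.01 there were 374, 135 higher and 239 lower, with 0 members in either direction. Centring each array moved the split to 807 higher and 710 lower, next to 579 and 947 as deposited. No member was called higher (0) with a dye term, with array b, with zeros kept or with trend and robust moderation. Members called lower numbered 3 with array b, where 846 features were called lower. They numbered 3 with the pair as a random block, where 1402 of 8306 features (16.9%) were lower. Among features on all 8 arrays they numbered 2, where 763 of 6743 were lower. The cause of these changes was not tested. The apical minus basal difference ran from 0.27 to 0.47 without 1 pair.

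Read as Cy5 over Cy3, limma called 0 features (0 higher and 0 lower; 0 members in either direction), and the apical minus basal difference was -0.26. The mean of ase was then 1.34, aPKC -0.17 and mira 0.35, with pros 0.52, bora -0.087, aurB 0.24, ctp 0.36, spd-2 -0.11, crb -0.080 and pyd -0.16. The other called genes gave klu 0.38, svp 0.33, D -0.59, nerfin-1 0.43, elav 0.16, Appl 0.014, repo 0.82, gcm 2.52, Gs2 0.39, lmd 0.55, slou 0.11, grh 0.91, Hml 0.087 and bam 0.36; crq was the 1 that kept its sign. This reading turns the sign of the 5 arrays with the mutant in Cy3.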
